A study of Mus musculus with 12 samples.

Results

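The 6 genes described here, which bone cells use to raise or restrain osteoclasts, were followed through the differentiation and drug treatment of a mouse mesenchymal cell line: Tnfsf11 (Rankl), Tnfrsf11b (Opg), Csf1 (M-CSF), Sema3a, Tnfrsf11a (Rank) and Tnfsf10 (Trail). They were taken by gene symbol from the RNAseq count table, as 6 of its 56350 genes, and 4 of the 6 had enough counts to be tested. In osteocytes, Tnfsf11 fell with FG-4592 from 1.32 ± 0.422 to 0.0748 ± 0.0678 CPM, whereas mean Tnfrsf11b was 20.9 ± 4.51 CPM in vehicle and 39.3 ± 1.76 CPM in FG-4592 (SD, n = 3 libraries a condition). CPM are counts scaled to the normalized library size, and every ± on a CPM value is the SD of 3 libraries. Csf1 was the most abundant of the 6 in every condition, Sema3a was higher in osteocytes than in MSCs, and Tnfrsf11a and Tnfsf10 were close to absent.

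RANKL is a membrane and secreted ligand of the TNF family that binds RANK on osteoclast precursors and drives their maturation, and OPG is a soluble decoy receptor that binds RANKL and keeps it from RANK. M-CSF, acting on its receptor on cells of the monocyte lineage, provides the survival and proliferation signal that these precursors need. Sema3A, a secreted semaphorin, restrains osteoclast formation through neuropilin-1 and plexin-A receptors. TRAIL is a death-inducing TNF ligand that OPG also binds. Osteocytes, the cells buried in the bone matrix, are a main source of RANKL in the adult skeleton.

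All 12 libraries came from MPC2, a conditionally immortalized mouse mesenchymal stem cell line that is a single clone. MSCs were kept undifferentiated at 33 °C, and osteocytes were the same cells after 3 weeks at 37 °C in osteogenic medium with beta-glycerophosphate and ascorbic acid. Each was given DMSO vehicle or 50 µmol/L FG-4592 (Roxadustat), an inhibitor of the HIF prolyl hydroxylases, for 48 h, which makes 4 conditions of 3 libraries. Temperature, medium and time in culture changed with differentiation and cannot be told apart from it, and the labels name no batch and do not say whether the libraries of a condition were separate cultures, so that the tests measure the spread between these libraries. In bulk RNA, fewer cells of a type and less RNA per cell cannot be told apart.

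Library totals lay between 52829185 and 68108470 counts, and the floor used here, 3 counts, as many as an observed 0 may stand for, came to between 0.0447 and 0.0545 CPM. The floor covers counting error only. The osteocyte label was checked on 12 markers of osteoblasts and osteocytes, of which 9 were tested. Among them 4 rose from vehicle-treated MSCs to vehicle-treated osteocytes, where 15.9% of all genes tested were called in either direction, with Phex at 0.977 ± 0.116 and 57.6 ± 6.32 CPM and Dmp1 at 1.19 ± 0.622 and 11.2 ± 2.3 CPM, but Sost, the sclerostin gene of mature osteocytes, was at 0 in every library, and Mepe and Pdpn were at or under the floor. In the same comparison Ibsp, at 59.6 ± 4.48 and 35.6 ± 1.57 CPM (FDR 0.00289), and Alpl, at 76.6 ± 7.14 and 61 ± 3.24 CPM (FDR 0.014), were lower in osteocytes, past the FDR cutoff of 0.05 alone. The 12 osteoclast and macrophage markers summed to between 2.79 and 3.72 CPM in vehicle-treated MSCs, 2.08 and 3.14 in FG-4592-treated MSCs, 3.42 and 4.16 in vehicle-treated osteocytes and 3.16 and 4.28 in FG-4592-treated osteocytes, and Calcr and Adgre1 were at 0 throughout. Within these sums Acp5, which encodes the phosphatase TRAP, rose from 0 in vehicle-treated MSCs to 1.79 ± 0.672 CPM in vehicle-treated osteocytes (FDR 1.21e-06), where Tnfsf11 also rose, and Csf1r fell from 1.59 ± 0.13 to 0.422 ± 0.258 CPM (FDR 0.00675); their part in the Tnfsf11 difference was not tested. The 7 endothelial and blood markers summed to at most 0.561 CPM in any library. Pecam1, the 1 of them tested, rose from 0.0879 ± 0.0749 CPM in vehicle-treated MSCs to 0.308 ± 0.067 CPM in vehicle-treated osteocytes (FDR 0.0328).

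The 6 genes spanned a wide range of levels. Per kilobase of exon, Csf1 stood first at 91.2 ± 4.81 CPM per kb in vehicle-treated MSCs and 75.1 ± 2.13 CPM per kb in vehicle-treated osteocytes. Tnfrsf11b and Sema3a followed in vehicle-treated MSCs at 0.723 ± 0.175 and 0.475 ± 0.0159 CPM per kb, and their libraries did not overlap, whereas with FG-4592 they did. In vehicle-treated osteocytes the order was Csf1, Tnfrsf11b at 7.4 ± 1.6 CPM per kb, Sema3a at 3.16 ± 0.378 CPM per kb, Tnfsf11 at 0.589 ± 0.189 CPM per kb and Tnfsf10 at 0.0334 ± 0.036 CPM per kb, with no overlap between neighbours. In FG-4592-treated osteocytes Tnfrsf11b reached 14 ± 0.624 CPM per kb and Tnfsf11 stood at 0.0335 ± 0.0303 CPM per kb. The factors that restrain osteoclasts, Tnfrsf11b and Sema3a, were therefore both above Tnfsf11 on this per-length scale in every library of the osteocytes.

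**Figure D1:**
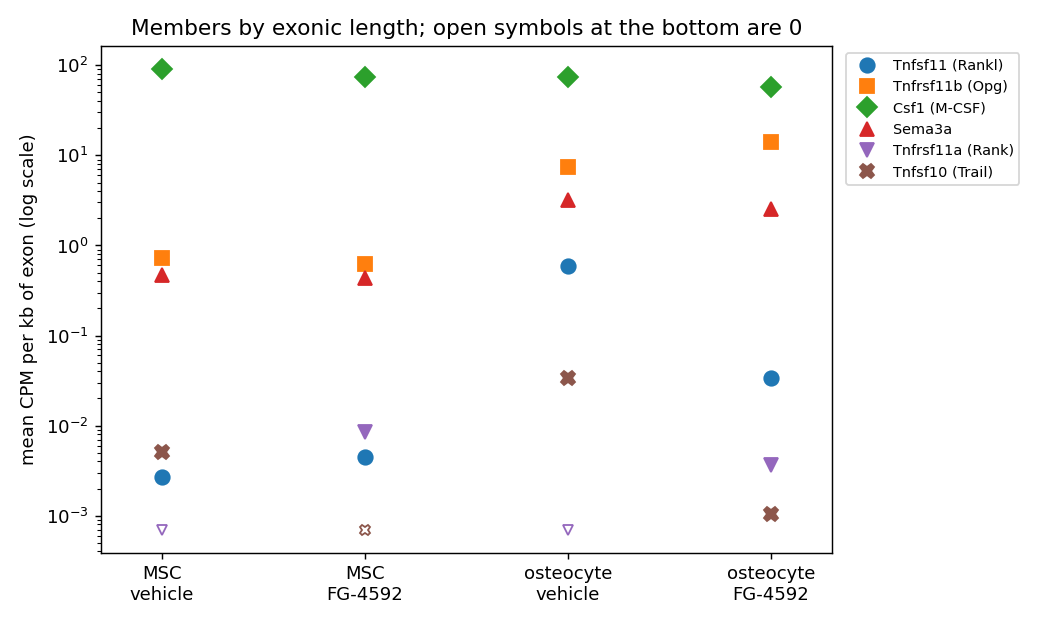
Mean level per kilobase of exon (CPM per kb, log scale) of the 6 genes in the 4 conditions, 3 libraries each, with open symbols at the bottom for a mean of 0. Csf1 lies between 57.9 and 91.2 CPM per kb in all conditions, while Tnfsf11 is at 0.589 in vehicle-treated osteocytes and at most at 0.0335 in the other conditions.

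Tnfsf11, the RANKL ligand gene (ENSMUSG00000022015.8), lies on the reverse strand of chromosome 14 at 78277445 to 78308043 of mm10, with 2236 exonic bases that no other gene shares. Its promoter is shown because it is the member called with FG-4592 in osteocytes among the 4 tested, beside that of Csf1, which was lower with FG-4592 in both cell types. RefSeq promoters of the GRCm38.p6 assembly matched 5 of the 6 members, and Tnfrsf11b was not matched. Both sequences run 5′ to 3′ on the reverse strand, from 250 bases before the transcription start to base 30 after it, at chr14:78308014-78308293 for Tnfsf11 and chr3:107760440-107760719 for Csf1. Capitals mark the letters TATAA on the gene's strand and the HIF core letters ACGTG or GCGTG on either strand.
Tnfsf11: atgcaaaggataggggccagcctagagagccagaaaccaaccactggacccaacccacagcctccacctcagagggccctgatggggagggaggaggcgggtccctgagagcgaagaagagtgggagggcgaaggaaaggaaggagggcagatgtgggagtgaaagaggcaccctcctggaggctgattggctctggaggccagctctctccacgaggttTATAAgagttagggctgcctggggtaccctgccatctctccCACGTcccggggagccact
Csf1: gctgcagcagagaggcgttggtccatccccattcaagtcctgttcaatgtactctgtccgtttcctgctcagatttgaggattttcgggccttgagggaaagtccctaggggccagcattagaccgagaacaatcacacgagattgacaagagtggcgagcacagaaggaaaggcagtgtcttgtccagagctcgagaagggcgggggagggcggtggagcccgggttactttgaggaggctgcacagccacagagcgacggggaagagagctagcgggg
The Tnfsf11 window held TATAA from base -30 to -26, where it overlaps the same letters read on the other strand, and ACGTG on the opposite strand from base 12 to 16 after the start. In the whole windows of 300 bases, Csf1, Sema3a and Tnfsf10 held neither HIF core, and Tnfrsf11a held GCGTG on the opposite strand at -237 and at -121. One of these cores stood in 43.8% of all 32851 promoters of this length, ACGTG alone in 19.6% and TATAA in 24.9%, both strands counted. These matches describe the letters and show no binding.

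Tnfsf11 was barely counted in MSCs, with 1, 0 and 0 counts in vehicle and 0, 2 and 0 in FG-4592, all at or under the floor. Vehicle-treated osteocytes held 96, 47 and 102 counts, or 1.45, 0.845 and 1.66 CPM. FG-4592-treated osteocytes held 6, 0 and 8 counts, or 0.0924, 0 and 0.132 CPM. Every vehicle-treated osteocyte library thus lay above all others, and the lowest of them held more counts than the 3 FG-4592 libraries together, which sum to 14. With FG-4592 the log2 fold change was -4.10 (SE 0.784, FDR 0.000437), where FDR is the adjusted p of edgeR over all genes tested and a gene is called at an FDR under 0.05 and an absolute log2 fold change above 1. Every SE of a fitted change is the value implied by the test statistic and was not estimated separately. On the summed counts, 245 against 14, the level was 17.8-fold lower with FG-4592 (exact 95% counting interval 10.4 to 33). That interval covers counting error in the summed counts and leaves out the spread between libraries. The 95% interval of the fitted log2 fold change, which includes that spread, was -5.91 to -2.29. The fitted change lay between -4.75, without FG-4592 replicate 3, and -3.53 when single libraries were left out, and it was called each time. Tnfsf11 passed the count filter through the vehicle-treated osteocytes alone, and these fits kept the genes so filtered. The calls are therefore a description.

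From vehicle-treated MSCs to osteocytes Tnfsf11 rose, from 1 count to 245 in all, a ratio of 238 with a counting interval of 42.4 to 9450 (FDR 2.64e-05). The counting intervals of summed counts leave out the spread between libraries, and the fitted 95% interval was 4.94 to 9.92 on the log2 scale. The 1 MSC count came from replicate 1, and the fitted log2 fold change of 7.43 became 9.37 without it and was at least 6.97 with any other library left out. It was called each time, in fits that kept the same filtered genes, so that these calls too are a description. In the presence of FG-4592 the 2 cell types held 2 and 14 counts, a ratio of 7.15 (1.64 to 64.8), and the comparison was not called (log2 fold change 2.63, SE 1.19, FDR 0.0717), with overlapping libraries. The FDR of that comparison was under 0.05 in 5 of 14 alternatives, among them those without MSC FG-4592 replicate 2 (FDR 0.0337) and without osteocyte FG-4592 replicate 2 (FDR 0.0155). In MSCs Tnfsf11 was at the floor, so that no response can be read there; the fitted difference of responses rests on those 3 MSC counts and was not called (FDR 0.144). The osteocyte markers Phex and Dmp1 fell beside Tnfsf11 with FG-4592 in osteocytes, Phex from 57.6 ± 6.32 to 2.83 ± 0.871 CPM and Dmp1 from 11.2 ± 2.3 to 2.06 ± 0.582 CPM. Of the 9 osteoblast and osteocyte markers tested 5 fell and none rose in this comparison, beside 10.5% of all genes called, and in MSCs 4 of the 9, Ibsp, Dmp1, Alpl and Phex, fell and none rose, beside 9.29%. In osteocytes their summed level, which is mostly Col1a1, ranged from 2920 to 3400 CPM in vehicle and from 2900 to 3820 CPM in FG-4592. The part of the differentiation state in the Tnfsf11 change was not tested.

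**Figure D2:**
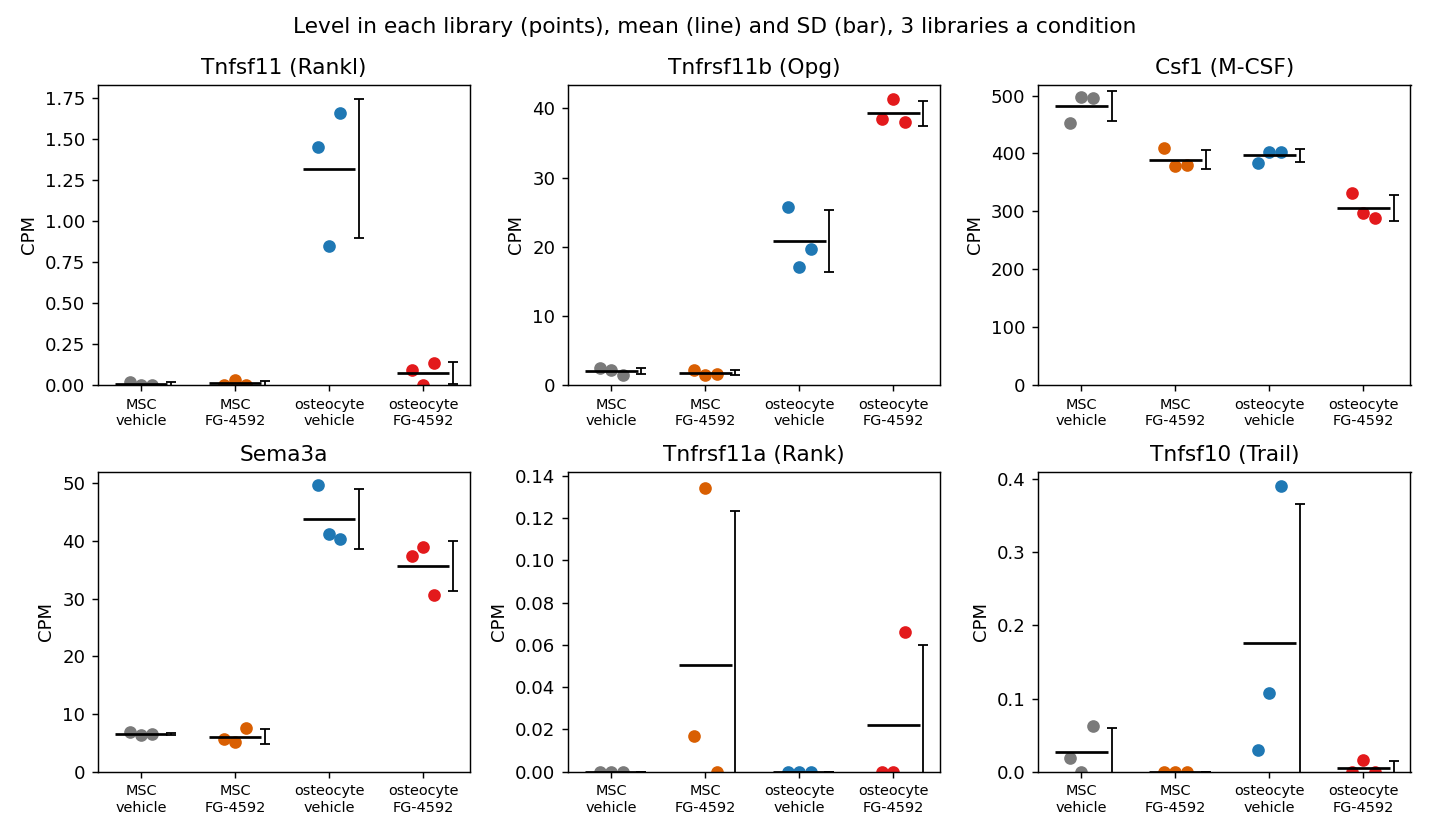
CPM of each gene in each of the 12 libraries (points) with the mean (line) and SD (bar, cut at 0), on axes that start at 0 and differ between genes. Tnfsf11 stands at 0.845 CPM or more in the vehicle-treated osteocytes and at most at 0.132 CPM elsewhere, and Tnfrsf11b is at 38.1 CPM or more in all FG-4592-treated osteocytes.

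Tnfrsf11b, the gene of the decoy receptor OPG (ENSMUSG00000063727.3), lies on the reverse strand of chromosome 15 at 54250619 to 54278484, with 2818 exonic bases. Its level in MSCs was 2.45, 2.17 and 1.49 CPM in vehicle and 2.18, 1.52 and 1.59 CPM in FG-4592. Vehicle-treated osteocytes held 25.8, 17 and 19.7 CPM, and FG-4592-treated osteocytes 38.5, 41.4 and 38.1 CPM. The MSC libraries of both treatments overlapped, all osteocyte libraries lay above them, and within osteocytes the treatments did not overlap. Tnfrsf11b rose with differentiation, by a log2 fold change of 3.36 (SE 0.181, FDR 2.16e-10) in vehicle and 4.48 (SE 0.185, FDR 5.71e-12) in FG-4592.

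With FG-4592 in osteocytes the Tnfrsf11b log2 fold change was 0.91 (SE 0.15, FDR 0.000107), a 1.88-fold higher level that passed the FDR cutoff and not the cutoff on fold change. Without osteocyte vehicle replicate 1, the highest of its condition, the change was 1.08 and passed both. In MSCs the change was -0.21 (SE 0.206, FDR 0.477), with a 95% interval of -0.68 to 0.27. The response of Tnfrsf11b differed between the cell types, by 1.12 on the log2 scale (SE 0.255, FDR 0.00416), which was called. This difference was 0.93 when MSC vehicle replicate 1 was left out and 0.95 when osteocyte vehicle replicate 2 was, both under the fold cutoff, and its FDR stayed under 0.05 in all 19 alternatives.

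The balance of RANKL to its decoy was taken as the ratio of Tnfsf11 to Tnfrsf11b counts in each library. In vehicle-treated osteocytes this ratio was 0.056, 0.0496 and 0.0842, or 1 Tnfsf11 count to 17.9, 20.1 and 11.9 of Tnfrsf11b. In FG-4592-treated osteocytes it was 0.0024, 0 and 0.00346, with 417 and 289 Tnfrsf11b counts per Tnfsf11 count in the libraries of replicates 1 and 3. The library with 0 Tnfsf11 counts held 2529 of Tnfrsf11b. Every vehicle library lay above every FG-4592 library, and their counting intervals did not overlap.

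As a share of the counts of both genes, Tnfsf11 made up 5.3% (exact Clopper-Pearson 95% interval 4.31 to 6.44), 4.73% (3.49 to 6.24) and 7.76% (6.37 to 9.34) in vehicle-treated osteocytes. With FG-4592 the shares were 0.239% (0.0878 to 0.52), 0% (up to 0.146; the limit of 3 counts over the observed total of both genes is 0.119%) and 0.345% (0.149 to 0.679). The mean share was 5.93% ± 1.61 in vehicle and 0.195% ± 0.177 in FG-4592 (SD, n = 3), a difference of -5.74 percentage points with an exact two-sided permutation p of 0.1, the smallest that 3 against 3 libraries allow. Corrected for exonic length the mean shares were 7.36% ± 1.97 and 0.245% ± 0.223. Both genes contributed to the change in the ratio, with the 17.8-fold lower summed Tnfsf11 counts beside the 1.88-fold higher Tnfrsf11b level.

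In MSCs the counts did not allow a ratio to be read. The shares were 0.735%, 0% and 0% in vehicle and 0%, 1.92% and 0% in FG-4592, from at most 2 Tnfsf11 counts in a library. Their limits were wide, since 3 counts over the observed total of both genes come to between 2.21% and 3.16%. These limits of 3 counts lie above the shares in FG-4592-treated osteocytes and below those in vehicle-treated osteocytes, although the exact interval of 1 MSC library reached 6.77%.

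**Figure D3:**
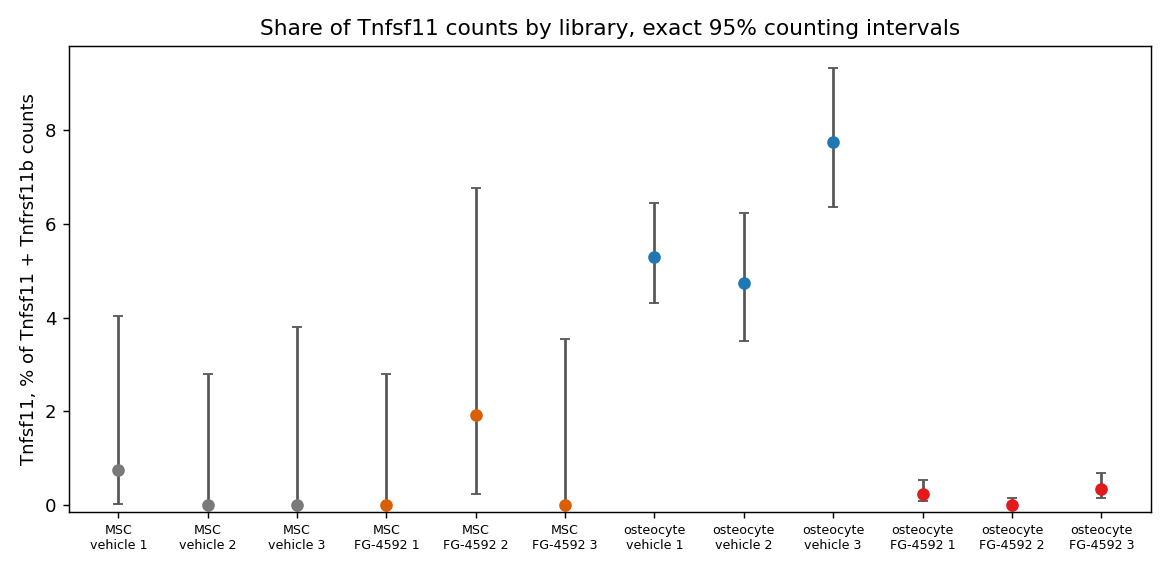
Tnfsf11 as a percentage of Tnfsf11 plus Tnfrsf11b counts in each library, with exact 95% counting intervals. The vehicle-treated osteocytes sit at 4.73% to 7.76% and the FG-4592-treated osteocytes at 0% to 0.345%, while the intervals of the MSC libraries are wide.

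Csf1, which encodes the growth factor M-CSF (ENSMUSG00000014599.10), lies on the reverse strand of chromosome 3 at 107741048 to 107760469, with 5281 exonic bases. It stood at 453, 497 and 496 CPM in vehicle-treated MSCs and at 409, 379 and 380 CPM with FG-4592. In osteocytes it stood at 384, 403 and 403 CPM in vehicle and at 332, 297 and 289 CPM with FG-4592. FG-4592 libraries were below vehicle libraries in both cell types without overlap, and FG-4592-treated MSCs overlapped vehicle-treated osteocytes. The log2 fold change with FG-4592 was -0.31 (SE 0.0582, FDR 0.000478) in MSCs and -0.37 (SE 0.0583, FDR 6.24e-05) in osteocytes, past the FDR cutoff and not the fold cutoff. The 2 responses differed by -0.07 (SE 0.0822, FDR 0.624), with a 95% interval of -0.26 to 0.12. Osteocytes held less Csf1 than MSCs, with log2 fold changes of -0.28 (FDR 0.000733) in vehicle and -0.35 (FDR 9.19e-05) in FG-4592. Its means over the conditions ran from 306 ± 23.1 to 482 ± 25.4 CPM, on the log2 scale the narrowest range of the 4 members tested.

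Sema3a, the restraining semaphorin (ENSMUSG00000028883.17), lies on the forward strand of chromosome 5 at 13125414 to 13602565, with 13868 exonic bases. Its MSC levels were 6.83, 6.4 and 6.54 CPM in vehicle and 5.62, 5.11 and 7.51 CPM with FG-4592. The osteocyte levels were 49.8, 41.3 and 40.3 CPM in vehicle and 37.5, 38.9 and 30.7 CPM with FG-4592. All osteocyte libraries lay above all MSC libraries, and the rise with differentiation was 2.73 on the log2 scale (SE 0.134, FDR 6.3e-11) in vehicle and 2.55 (SE 0.133, FDR 1.1e-10) in FG-4592. With FG-4592 the log2 fold change was -0.12 (SE 0.137, FDR 0.558, 95% interval -0.43 to 0.20) in MSCs, where the libraries overlapped. In osteocytes it was -0.30 (SE 0.121, FDR 0.0587), which missed the cutoff although the libraries did not overlap. That FDR ranged from 0.00698 to 0.241 over the alternatives and was under 0.05 in 8 of 14, so the comparison stood at the threshold. The responses of the cell types differed by -0.18 (SE 0.183, FDR 0.529, 95% interval -0.60 to 0.24).

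Tnfrsf11a, the gene of the receptor RANK that osteoclast precursors carry (ENSMUSG00000026321.7), lies on the forward strand of chromosome 1 at 105780718 to 105847981, with 5985 exonic bases. It had 0 counts in all 6 vehicle libraries. The FG-4592 libraries held 1, 9 and 0 counts in MSCs and 0, 0 and 4 in osteocytes, so that a single library held most of each sum. With all genes that had any count in the fit, 31742 genes, its FDR was 0.163 in MSCs and 0.302 in osteocytes. The receptor was thus at or under the floor in 10 of the 12 libraries, in MSC FG-4592 replicate 2 and osteocyte FG-4592 replicate 3 alone above it.

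Tnfsf10, the TRAIL gene (ENSMUSG00000039304.11), lies on the forward strand of chromosome 3 at 27317028 to 27342427, with 5266 exonic bases. It had 1, 0 and 4 counts in vehicle-treated MSCs and none with FG-4592. In osteocytes it had 2, 6 and 24 counts in vehicle and 0, 1 and 0 with FG-4592. The osteocyte treatments did not overlap, but their nearest libraries held 2 and 1 counts, both under the floor of 3 counts, and cannot be told apart. Replicate 3 held 24 of the 32 vehicle counts. The summed counts were 32.6-fold lower with FG-4592 (exact 95% counting interval 5.44 to 1330, which leaves out the spread between libraries). In the fit of 31742 genes the log2 fold change was -4.57 (FDR 0.0324). Tnfsf10 and Tnfrsf11a were below the count filter that the other tests used. For FG-4592 in osteocytes the fit without that filter gave smaller FDRs than the main fit, 1.3e-08 in place of 0.000437 for Tnfsf11 and 3.68e-18 in place of 0.000107 for Tnfrsf11b. The FDR of Tnfsf10 is therefore not comparable with those of the main fit and is not a call.

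The counts of called members are given beside the share of all genes tested that was called. Tnfsf11 passed the count filter through the vehicle-treated osteocytes alone, so that its calls in comparisons with that condition were favoured by its entry and are a description. With FG-4592 in MSCs, 0 of 4 members were called, beside 9.29% of all genes, and 1 of 4, Csf1, was under the FDR cutoff alone, beside 38.1% of all genes. Csf1 was also the 1 member of the 4 at an unadjusted p under 0.05 there. In osteocytes 1 of 4 was called, Tnfsf11, beside 10.5%, and 3 of 4 passed the FDR cutoff, beside 43.8%. Between the cell types in vehicle 3 of 4 rose, beside 15.9% called in either direction, and 4 of 4 passed the FDR cutoff, beside 51%. In FG-4592 2 of 4 rose, Tnfrsf11b and Sema3a, beside 18.3%, and 3 of 4 passed the FDR cutoff, beside 55.8%. In the difference of responses Tnfrsf11b was both called and under the FDR cutoff, beside 5.01% and 24.3% of all genes. The comparisons of treatments and of cell types share libraries and are not independent.

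**Figure D4:**
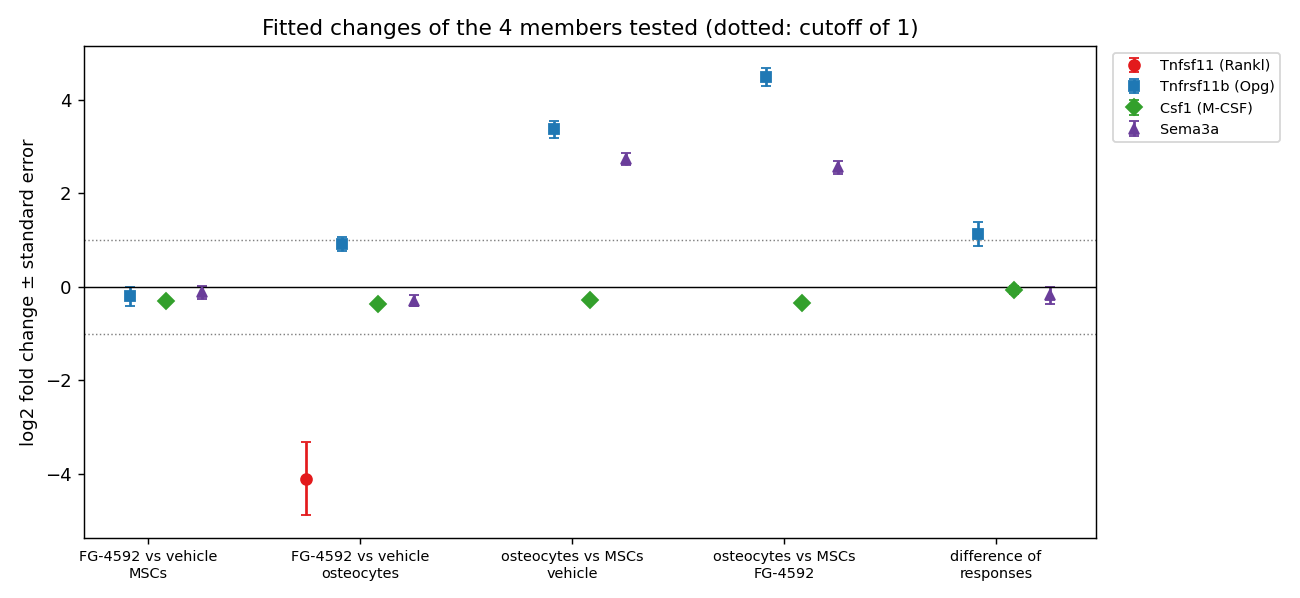
Fitted log2 fold changes with the standard errors implied by their test statistics in the 5 comparisons, with dotted lines at the fold cutoff, and Tnfsf11 shown only where its counts allow. Tnfsf11 falls to -4.10 in osteocytes, while Tnfrsf11b lies at 0.91 in osteocytes and -0.21 in MSCs.

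Likeness of pattern was measured as the root mean square (RMS) difference between log2 CPM values, each gene centred on its own mean over the 12 libraries, among the 13270 genes that averaged 50 counts or more in 1 condition. Closest to Tnfsf11 were Wfdc1 (RMS 0.732), Nfe2l3 (0.857) and Slc8a1 (0.912), and Wfdc1 stood at 0.89 CPM in vehicle-treated and 0.115 CPM in FG-4592-treated osteocytes. Closest to Tnfrsf11b were Vit (0.311), Mgp (0.351), the matrix Gla protein gene, and Dapk1 (0.384), with Mgp at 67.8, 48.6, 886 and 1190 CPM in the order vehicle and FG-4592 in MSCs, then in osteocytes. Closest to Sema3a were Vegfc (0.256), Itgb8 (0.261) and Scd1 (0.263). The neighbours of Tnfsf11 lay farther from it than those of the other members, and its low counts make that measure less exact. The range of Csf1 over the conditions, 0.657 on the log2 scale, was too small for this comparison.

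The other genes of the system were counted by role, on lists written by hand, with the medians of all genes tested at -0.045 in MSCs and 0.0015 in osteocytes on the log2 scale. With FG-4592, 9.29% of all genes tested were called in MSCs and 10.5% in osteocytes, in either direction, and the counts of each list are to be set beside these shares. Of the 10 receptors of the member ligands, Plxna2, a plexin of the Sema3A receptor complex, was the one called, with a fall from 626 ± 17.3 to 248 ± 6.35 CPM in MSCs and from 529 ± 21.4 to 143 ± 3.48 CPM in osteocytes with FG-4592; the median of the list was 0.20 in MSCs and -0.14 in osteocytes. The M-CSF receptor gene Csf1r was at 1.59, 0.835, 0.422 and 0.303 CPM in the order of conditions above. Of 17 tested genes of RANK signalling 1 fell in each cell type, Fos in MSCs, from 1.55 ± 0.182 to 0.578 ± 0.178 CPM, and Traf1 in osteocytes, from 0.65 to 0.0646 CPM, named after its values were seen, which like Tnfsf11 passed the count filter through vehicle-treated osteocytes alone, where a call as higher was favoured; the medians were 0.02 and -0.01.

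Of 17 tested factors known to promote osteoclasts or recruit their precursors, 3 rose and 3 fell in MSCs and 2 rose and 3 fell in osteocytes (medians -0.28 and -0.22). Vegfa and Angptl4, both also targets of HIF, rose in both, Vegfa from 87.2 ± 9.5 to 206 ± 2.12 CPM in MSCs and from 91.9 ± 2.07 to 599 ± 13.5 CPM in osteocytes and Angptl4 from 26.6 ± 4.11 to 365 ± 29.9 CPM in osteocytes. The chemokine genes Ccl2 and Ccl7 fell in osteocytes, from 10.3 ± 1.42 to 2.2 ± 0.641 CPM and from 11 ± 3.22 to 1.31 ± 0.298 CPM, Sphk1 fell in both cell types, and Cxcl12 fell in MSCs from 8730 ± 469 to 3150 ± 40.1 CPM. Cxcl12 was also lower with FG-4592 in osteocytes, at 13300 ± 738 and 7400 ± 203 CPM (log2 fold change -0.85, FDR 3.96e-10), past the FDR cutoff and not the fold cutoff. Of 8 tested restraining factors beside the members, 2 fell in each cell type and none rose (medians -0.66 and -0.32). Slit3 was among them in both, with 16.4 ± 2.15 and 6.16 ± 0.709 CPM in osteocytes, beside Il18 in MSCs and Cd200 in osteocytes, which was at 13 ± 1.76 and 4.8 ± 0.449 CPM. In MSCs Slit3 stood at 0.231 ± 0.0446 and 0.0323 ± 0.0336 CPM, so that its fall there rests on a mean under the floor of 3 counts.

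Of 20 tested receptors and regulators through which hormones and cytokines act on Tnfsf11 and Tnfrsf11b, none was called in MSCs and 2 rose in osteocytes (medians -0.14 and 0.09). These were the interleukin-6 receptor gene Il6ra, from 43 ± 3.51 to 196 ± 12.6 CPM, and the oncostatin M receptor gene Osmr, from 63.8 ± 13.7 to 162 ± 3.83 CPM. Among 4 tested proteases that can shed RANKL from the membrane, Adam19 rose in osteocytes from 28.8 ± 3.13 to 58.6 ± 4.8 CPM (log2 fold change 1.02), a call lost in 5 alternatives, at 0.92 with library totals alone and at 0.95 to 1.00 when osteocyte vehicle replicate 2 or 3 or FG-4592 replicate 2 or 3 was left out; the list medians were -0.17 and -0.18.

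The families of the members were counted too. Of 6 tested TNF ligands, 2 rose and 1 fell in MSCs, and in osteocytes Tnfsf9 rose and Tnfsf11 fell (medians 0.11 and -0.29). Tnfsf9 did not exceed the floor in vehicle and stood at 1.4 ± 0.0791 CPM in MSCs and 0.734 ± 0.35 CPM in osteocytes with FG-4592, while Tnfsf13 fell in MSCs from 0.477 ± 0.246 to 0.143 ± 0.114 CPM (FDR 0.0253). That call of Tnfsf13 was lost without MSC vehicle replicate 1 (FDR 0.134) or 2 (0.0539) or FG-4592 replicate 3 (0.0743), and with only the 6 libraries compared (0.0819). Of 20 tested TNF receptors, 2 rose and 5 fell in MSCs and 1 rose and 5 fell in osteocytes (medians -0.26 and -0.31), beside 9.29% and 10.5% of all genes; Ngfr, counted as a rise in MSCs and a fall in osteocytes, passed the count filter through vehicle-treated osteocytes alone. Tnfrsf9 rose most, from 0.294 ± 0.132 to 54.2 ± 1.72 CPM in osteocytes, whereas Tnfrsf19 fell from 53.7 ± 4.85 to 17 ± 1.95 CPM and Tnfrsf21 from 7.13 ± 0.644 to 1.63 ± 0.477 CPM there. Of the 7 class 3 semaphorins, Sema3a included, none was called in MSCs and 3 rose in osteocytes (medians -0.01 and 0.70), with Sema3g at 0.884 ± 0.53 and 24.3 ± 3.84 CPM, Sema3e at 1.14 ± 0.27 and 2.61 ± 0.431 CPM and Sema3f at 0.0751 ± 0.069 and 0.421 ± 0.33 CPM. The call of Sema3f was lost without osteocyte FG-4592 replicate 1 (FDR 0.0589) and with only the 6 libraries compared (0.0563).

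**Figure D5:**
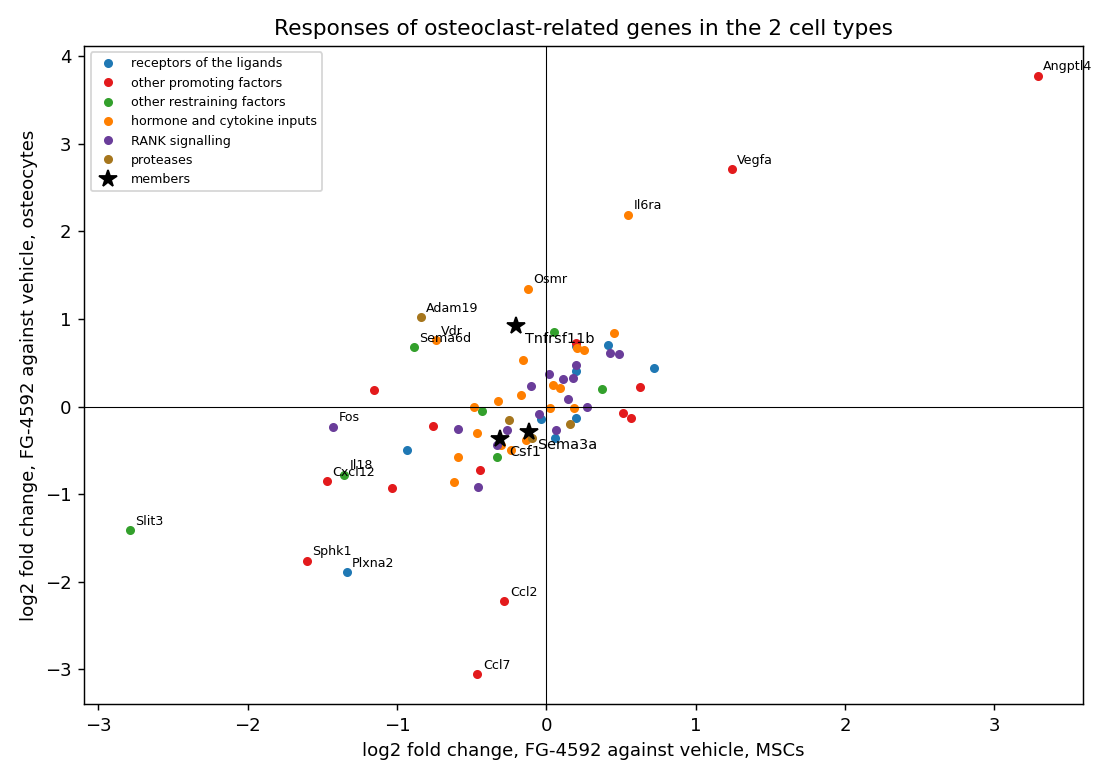
Log2 fold change with FG-4592 in MSCs (horizontal) and in osteocytes (vertical) of osteoclast-related genes that averaged 50 counts or more in 1 condition and had a level above the floor in both cell types. Stars mark Tnfrsf11b, at -0.21 and 0.91, Csf1, at -0.31 and -0.37, and Sema3a, at -0.12 and -0.30; named points are the genes the naming rule picked.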

How the data were processed

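The authors mapped the paired RNAseq reads of 12 MPC2 libraries to mm10 with STAR 2.7.2a and counted them on Gencode M22 genes with featureCounts (Subread 1.6.2), requiring mapping quality 10 or more, with pairs counted for every gene they overlap and without strand. They deposited raw counts, 1 per gene and library, which were used as deposited.

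The 16484 genes exceeding 10 counts in 3 libraries or more entered the fit and were tested with the quasi-likelihood test of edgeR 4.0.16 (R 4.3.3), TMM factors and 1 coefficient per condition over all 12 libraries, and p-values were adjusted (Benjamini-Hochberg) across these genes. Calls needed an FDR under 0.05 and an absolute log2 fold change above 1. Shares of Tnfsf11 were compared by an exact permutation test.

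The members and lists were chosen with earlier results of these data known. Of each list the text names genes called in a treatment comparison or in the response difference that averaged 50 counts or more in 1 condition, at most 6 by size, and for each member of sufficient range the 3 genes of most similar pattern. Marker levels are given for the marker lists. Alternatives were RLE factors, library totals alone, no filter, filterByExpr, DESeq2 1.42.0, the likelihood ratio test, only the libraries compared, a replicate block, and each library left out. Promoters came from RefSeq. Figures were drawn in Python 3.11.15.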

Additional observations from a re-analysis of the deposited data

Results flagged for a closer look

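The osteocyte response to FG-4592 minus the MSC response, on the log2 scale, was past both cutoffs in the edgeR interaction test for Tnfrsf11b, at 1.12, and for 18 of the 33 list genes named, beside 5.01% of all genes tested. The list genes were named for being called in a treatment comparison or in this test, so that their count follows from the naming rule. Of the ligands, chemokines and restraining factors, Vegfa was at 1.47, Ccl2 at -1.94, Ccl7 at -2.60, Sema3e at 1.34, Sema3g at 5.05 and Sema6d at 1.57. Of the receptors, regulators and proteases, Il6ra was at 1.65, Osmr at 1.47, Vdr at 1.498, Adam19 at 1.86, Tnfrsf9 at 4.09, Tnfrsf14 at 2.02, Tnfrsf19 at 2.56 and Fos at 1.20; the Tnfrsf19 value rests on a level under the floor of 3 counts in FG-4592-treated MSCs (0.0214 ± 0.0106 CPM); Fos was at 0.96 without MSC FG-4592 replicate 3 and then missed the fold cutoff. Of the osteoblast and osteocyte markers, Alpl was at 1.17, Ibsp at 2.57 and Phex at -2.81. Ngfr was at -7.84, a fitted value that depends on the prior count because Ngfr had 0 counts in vehicle-treated MSCs; it passed the count filter through vehicle-treated osteocytes alone, so that its place among the 18 is no support.

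Vdr and Sema6d moved in opposite directions in the 2 cell types without either response passing the fold cutoff. Vdr stood at 108 ± 4.33 and 64.7 ± 5.65 CPM in MSCs and at 50.5 ± 3.12 and 85.4 ± 3.68 CPM in osteocytes, in vehicle and FG-4592. Sema6d stood at 21.4 ± 1.5 and 11.6 ± 2.26 CPM in MSCs and at 12.6 ± 1.41 and 20.2 ± 0.218 CPM in osteocytes.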

How the results depend on the processing

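Of 267 values of the members under alternatives, 259 kept their call, or lack of one, under both cutoffs together, 2 lost and 6 gained a call, and none of the called values changed sign. Tnfsf11 in osteocytes against MSCs in FG-4592 gained a call without the filter (2.62), with the likelihood ratio test (2.63) and with DESeq2 (2.83), and ranged from 1.98 to 5.23 with single libraries left out. With single libraries left out, Tnfrsf11b ranged from 0.77 to 1.08 for FG-4592 in osteocytes and from 0.93 to 1.30 for the difference of responses. The mean share difference of Tnfsf11 ranged from -6.34 to -4.82 points when single osteocyte libraries were left out and was -7.11 points per kilobase. Without TMM factors the median of all genes shifted by at most -0.0984 on the log2 scale. Correlations between the deviations of same-numbered libraries, taken over all genes tested, lay between -0.0528 and 0.0543. No pairing by number was seen at that scale, but the check cannot exclude shared cultures or batches that touch some of the genes. With the replicate block Tnfsf11 in osteocytes was -4.21 and 1678 genes were called there in place of 1732. No call changed among the values of Tnfsf11, Tnfrsf11b, Csf1 and Sema3a computed with the block. These values left out Tnfsf11 in MSCs and in the difference of responses. The FDR of Sema3a in osteocytes crossed 0.05 in 8 of 14 alternatives with no call, since its fold change stayed under the cutoff. Tnfsf11 in MSCs, at 2 counts or fewer in a library, allows no fold change to be read at this depth, and values of Tnfrsf11a and Tnfsf10 rest on few counts in single libraries. The cause of the changed calls was not tested.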
